A study of Mus musculus and Rattus norvegicus with 36 samples.

Results

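The oligodendrocyte lineage transcription factors described here are 10 genes: Olig1, Olig2, Sox10, Sox8, Sox5, Sox6, Nkx2-2, Nkx6-2, Myrf and Zfp488. They were listed by name as a family, with earlier results of these data known. All 10 were found by gene symbol in each of the 5 expression tables, out of 18464, 26349 and 26410 genes in the mouse tables and 16263 and 16437 in the rat tables. The study sequenced polyadenylated RNA of oligodendrocyte precursor cells (OPCs), the proliferating cells that give rise to the myelin-forming oligodendrocytes, in 36 libraries that form 12 groups of 3. Baf155 is the protein of the gene Smarcc1, a core subunit of the BAF (SWI/SNF) chromatin remodelling complex, and the stated question was whether it shapes how OPCs of different brain regions respond to neuronal input. The 12 acute libraries come from mouse OPCs captured on antibody-coated plates (immunopanning) and lysed there. Their 4 groups are Baf155-flox/flox mice without Cre (control) and Pdgfralpha-CreER;Baf155-flox/flox mice (knockout), each from the medial prefrontal cortex (mPFC) and the hippocampus. Both alleles are floxed in every acute animal, and the inducible Cre is driven from the promoter of Pdgfra, a receptor gene of OPCs. Age, the induction schedule and whether replicates are separate animals are not stated in the sources used here, so p-values measure the spread between these libraries. The 12 mouse culture libraries are wild-type OPCs from mPFC or hippocampus, grown for 2 days in proliferation medium with GABA at 200 uM over the last 24 h in the treated groups only. The 12 rat culture libraries are cortical OPCs in a GABA set and a separate glutamate set, each untreated or treated at 200 uM for 24 h.

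OLIG2 is the basic helix-loop-helix factor that sets up the oligodendrocyte lineage, and OLIG1 is its close relative, tied to maturation and remyelination. SOX10 and SOX8, of the SoxE group, act in the lineage at all stages, and SOX10 together with MYRF, a membrane-bound factor that cleaves itself and moves to the nucleus, drives myelin genes. SOX5 and SOX6, of the SoxD group, hold back terminal differentiation in the embryonic mouse spinal cord. NKX2-2 is a homeodomain repressor involved in the timing of differentiation, NKX6-2 a homeodomain protein of maturing oligodendrocytes, and ZFP488 a zinc finger protein that works with OLIG2.

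Values are normalized read counts, that is, read counts divided by 1 size factor for each library, so that 1 read is worth 0.905 to 1.117 units. Reads recovered from that unit came to 14826255 to 22128687 per library, and recovered reads were accepted for 19 of the 36 libraries. Pdgfra stood at 35184 to 45229 and Cspg4, the NG2 proteoglycan of OPCs, at 10619 to 14544 in the acute libraries, while the endothelial gene Cldn5 stood at 1.0 to 18.8. Markers of other cells were not all so low. Summed values were 24592 to 36512 for 14 astrocyte, 15012 to 21695 for 15 neuronal and 92.1 to 185.6 for 9 endothelial markers. The 19 OPC markers summed to 200405 to 217141. Smarcc1 stood at 4419 to 4514 in control and 1510.2 to 1631 in knockout libraries labelled hippocampus, and fell by 64.8% (adjusted p = 1.4e-11). In those labelled mPFC it stood at 3814 to 3915 and 2368 to 2649, and fell by 36.5% (adjusted p = 6.62e-08). On the mean of both regions Smarcc1 fell by 52.7% (log2 change -1.08 ± 0.03, SE). With the control region labels exchanged, the regional falls would lie closer together. Reads outside the deleted exons remain countable, so these shares do not measure recombination. The region labels of the acute control groups did not match the regional genes. Of 19 forebrain regional factors, 8 differed at least 2-fold between the untreated mPFC and hippocampus cultures with a mean of at least 10, and all 8 differed in the same direction between the acute knockout groups but 0 of 8 between the acute control groups. Nr2f2, a nuclear receptor, was at 15.8 in untreated mPFC and 203.9 in untreated hippocampus cultures, and at 137.4 in knockout mPFC and 393.7 in knockout hippocampus. In the libraries labelled control mPFC it was at 348.3, and in those labelled control hippocampus at 141.9. Tables were scaled separately, and this check was chosen after the values were seen. Each acute result is therefore led by the mean of the knockout effects in both regions, which is the same whichever way the control labels run, and the regional calls on the factors are also given with the control labels exchanged where this moves them. The third library of knockout mPFC and the third of control hippocampus also stood apart from their groups. The mean chi-square per gene of the 4 pairs that include them was 8.84 to 16.95, against at most 6.2 for the 2 pairs with the first GABA-treated mPFC culture and 1.23 to 4.23 for the other 30 pairs within groups, where 1 is the sampling noise of reads. No pair differed by as little as sampling noise. These chi-square values rest on reads recovered in all libraries. In both libraries that stood apart, Olig1, Olig2, Sox10 and Myrf were the lowest of their group and Sox5 and Sox6 the highest. Nkx2-2 was the lowest in the knockout mPFC library and the highest in the control hippocampus library. Sox8, Zfp488 and Nkx6-2 did not hold the same place in both.

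The factors differed widely in level per kilobase of annotated exon (GENCODE M21). In the libraries labelled control mPFC, Olig1 led at 19335 ± 890 normalized reads per kb (SD, n = 3), followed by Olig2 at 8990 ± 347, Sox10 at 5616 ± 153, Sox8 at 2579 ± 56.4 and Nkx2-2 at 1807 ± 109. Zfp488 at 844 ± 13.2 and Sox6 at 802.2 ± 22.6 came next, and their libraries did not overlap (829.9 to 855.9 against 776.1 to 815.7). Myrf stood at 309 ± 4.0, Sox5 at 132 ± 3.8 and Nkx6-2 at 7.4 ± 1.4. The order was the same in the other acute groups. In untreated cultures Sox6 stood above Zfp488 (1115 ± 3.9 against 677 ± 7.2 in mPFC). Myrf and Zfp488 changed places between the cultures: Myrf was above Zfp488 in mPFC (815 ± 19.8 against 677 ± 7.2), and in hippocampus their libraries overlapped (570.9 to 647.2 against 635.7 to 660.1). Long untranslated exons and unused exons lower the per-kb value of genes with many isoforms, such as Sox5 and Sox6, whose exon unions are 14376 and 14832 bases against 1907 to 8562 for the other 8. Gene lengths of the rat were not used, so levels of different genes are not compared in rat.

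**Figure D1:**
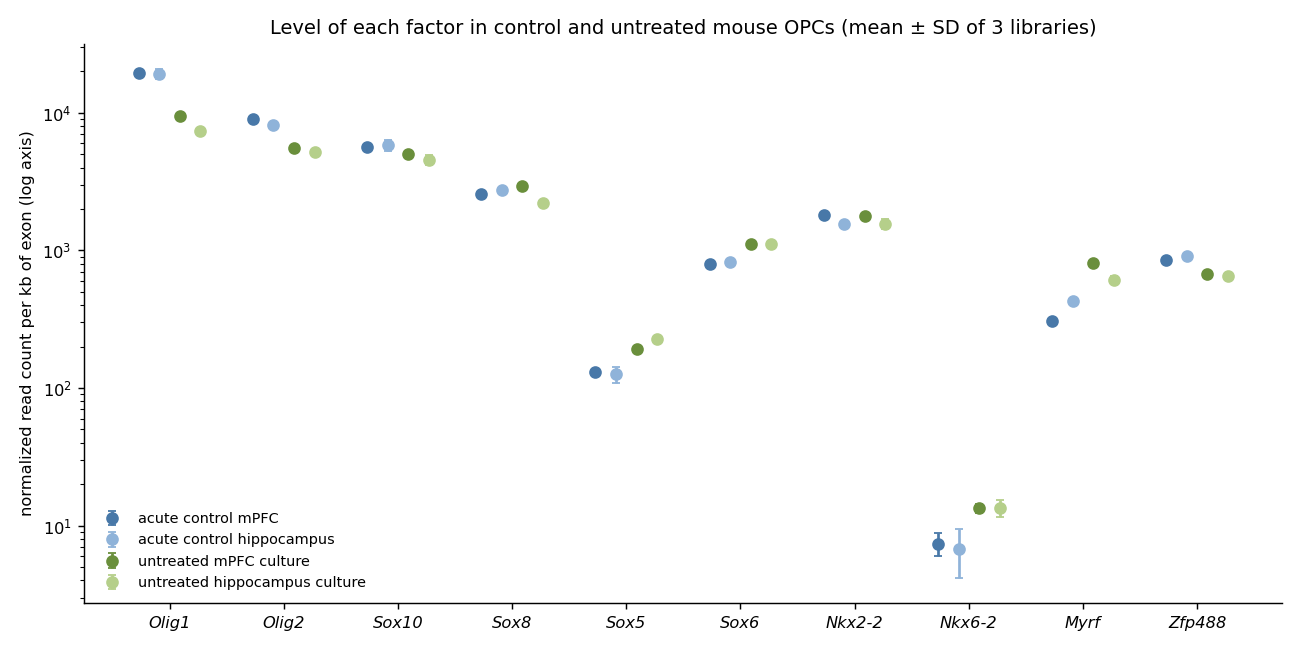
Mean ± SD of 3 libraries of the normalized read count per kb of exon (log axis) for each factor in 4 groups of mouse OPCs: acute control mPFC and hippocampus (blues) and untreated mPFC and hippocampus cultures (greens). Olig1, Olig2 and Sox10 lead in each group and Nkx6-2 is lowest, at 7.4 per kb in control mPFC; acute and cultured values come from tables scaled separately.

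In GRCm38 with GENCODE M21, Olig2 (16:91225457-91228677) and Olig1 (16:91269772-91271933) lie on the plus strand of chromosome 16, and the other 8 on minus strands. Sox8 is at 17:25565892-25570686, Nkx2-2 at 2:147177546-147194243, Sox10 at 15:79154908-79165240, Myrf at 19:10208272-10240748 and Zfp488 at 14:33967070-33978764. Antisense or other opposite-strand genes overlap 6 of the 10 (Olig1, Sox8, Sox5, Sox6, Nkx2-2 and Nkx6-2, the last overlapped by the protein-coding Inpp5a). Strand-specific counting is not stated, so reads of such partners cannot be told apart from those of the factor. Promoter sequence from RefSeq (GRCm38.p6) was matched for 7 of the 10 factors, in 12 entries, and Olig1, Sox10 and Myrf were not matched. Below are the 240 bases from 250 to 11 bases before the start, 5′ to 3′, for the 2 factors with the largest fall in the knockout, Sox8 (chr17:25570697-25570936, minus strand) and Nkx2-2 (chr2:147186413-147186652, minus strand), and for Zfp488 (chr14:33978775-33979014, minus strand), one of the least changed. Capitals mark the E-box letters CANNTG, the core that basic helix-loop-helix factors such as the OLIG proteins can bind, and AACAAT, a core bound by Sox proteins, read on both strands.
Sox8: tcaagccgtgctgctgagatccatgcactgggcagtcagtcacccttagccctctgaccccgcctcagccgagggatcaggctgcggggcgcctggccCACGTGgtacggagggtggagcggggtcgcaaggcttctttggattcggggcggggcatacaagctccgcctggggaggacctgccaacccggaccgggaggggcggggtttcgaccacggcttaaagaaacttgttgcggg
Nkx2-2: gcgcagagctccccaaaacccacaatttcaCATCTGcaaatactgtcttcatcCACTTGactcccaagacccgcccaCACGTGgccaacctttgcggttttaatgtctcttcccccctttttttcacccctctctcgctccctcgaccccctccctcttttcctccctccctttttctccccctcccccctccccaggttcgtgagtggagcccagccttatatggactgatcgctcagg
Zfp488: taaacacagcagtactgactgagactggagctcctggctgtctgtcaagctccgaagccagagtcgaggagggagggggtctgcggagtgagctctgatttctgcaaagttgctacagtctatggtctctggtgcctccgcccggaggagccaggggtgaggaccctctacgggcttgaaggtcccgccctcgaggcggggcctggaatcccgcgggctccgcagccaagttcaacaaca
The window held 1 E-box in Sox8, 3 in Nkx2-2 and 0 in Zfp488, and no AACAAT in any of the 3. Of all 32851 RefSeq promoter windows of this length, 65.0% held at least 1 CANNTG and 9.2% at least 1 AACAAT. Of the 12 entries of the factors, 9 held CANNTG and 2 held AACAAT (1 of the 6 of Sox6, and Olig2). The Olig2 window (16:91225300-91225539) runs past the GENCODE start of that gene, and its AACAAT match lies after that start. The Sox6 window with AACAAT (7:115824721-115824960) lies inside the annotated Sox6 gene. CANNTG reads the same on both strands in its fixed letters, and matches of the 2 motifs can overlap. The Nkx2-2 window lies inside the annotated gene, before the start of its coding transcripts: longer GENCODE transcripts with no coding part begin farther upstream, and an exon of theirs overlaps the last bases of the window. These are letter matches and not measured binding sites.

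Most of the family was lower in acutely isolated Baf155 knockout OPCs. On the mean of both regions, 9 of 10 factors fell and 0 rose, where 54.4% of the 13985 genes tested were called, 27.5% lower and 26.9% higher (limma-trend on log2(value + 1), Benjamini-Hochberg adjusted p under 0.05 over all tested genes). The median log2 change of the 10 was -0.31, against -0.012 over all tested genes. Sox8, Nkx2-2, Sox5 and Olig1 fell most, Myrf and Zfp488 fell least, and the very low Nkx6-2 did not pass the test. For 6 factors (Olig1, Sox10, Sox8, Sox5, Sox6 and Nkx2-2) all 6 knockout libraries were below all 6 control libraries, an arrangement that 10.1% of tested genes showed. Bulk RNA cannot tell fewer cells of one type from less RNA per cell.

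**Figure D2:**
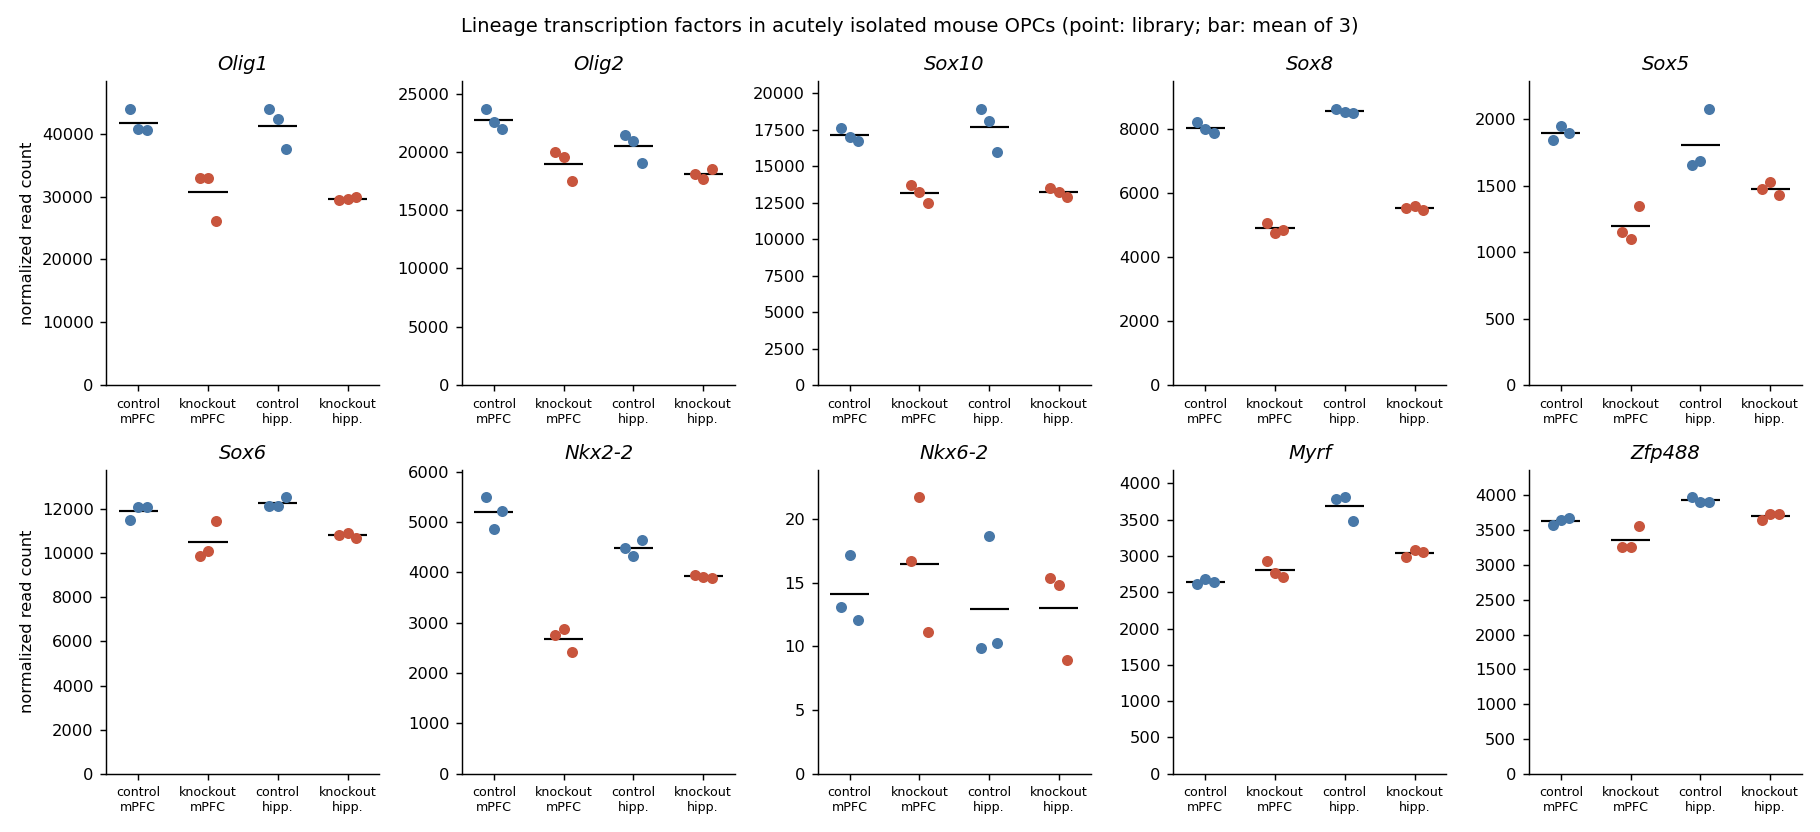
Normalized read count of each factor (axes from 0) in the 12 acute libraries; points are libraries, bars the mean of 3, blue control and red knockout, under the region labels as deposited. Sox8 drops from 7877 to 8651 in control to 4769 to 5606 in knockout, Nkx2-2 drops most in the libraries labelled mPFC, and Myrf is highest in those labelled control hippocampus.

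The SoxE pair fell in both regions. Sox8 measured 8227, 8023 and 7877 in control mPFC and 5081, 4769 and 4859.5 in knockout mPFC. In hippocampus it measured 8651, 8541 and 8526 in control and 5529, 5606 and 5482 in knockout. No knockout library reached the lowest control library. Sox8 fell by 37.2% on the mean of both regions (log2 change -0.67 ± 0.03, SE; adjusted p = 4.96e-11). It fell by 39.0% in mPFC and fell by 35.4% in hippocampus as labelled (difference not called; adjusted p = 0.273). With the control labels exchanged it fell by 42.8% and fell by 31.1%, and the difference passed (0.27 ± 0.05; adjusted p = 0.00482). Sox10 measured 17658, 16983 and 16765 in control mPFC and 13685, 13251 and 12514 in knockout mPFC. Its hippocampal values were 18954, 18117 and 15969 in control, the lowest being the library that stood apart, and 13498, 13259 and 12926.5 in knockout. Sox10 fell by 24.1% (log2 change -0.40 ± 0.04; adjusted p = 9.83e-07), with all knockout libraries below all control libraries.

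Of the OLIG pair, Olig1 fell more than Olig2. Olig1 measured 44021, 40808.5 and 40578 in control mPFC against 32903.5, 32969.9 and 26145 in knockout mPFC, where the last value is the library that stood apart. In hippocampus it measured 43976, 42378 and 37577.5 in control against 29432, 29631 and 29942 in knockout. Olig1 fell by 27.5% (log2 change -0.46 ± 0.06; adjusted p = 6.25e-06). Olig2 measured 21981 to 23705 in control mPFC, 17497.5 to 19956 in knockout mPFC, 19088 to 21476 in control hippocampus and 17653 to 18537 in knockout hippocampus. Its groups were apart within each region under the labels as deposited, while the highest knockout library lay above the lowest control library over both regions. Olig2 fell by 14.1% (log2 change -0.22 ± 0.04; adjusted p = 0.000288). The difference between the falls of Olig1 and Olig2 was not tested.

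Both SoxD genes fell, Sox5 by more. Sox5 measured 1839, 1949 and 1898 in control mPFC against 1148, 1094 and 1346 in knockout mPFC, and 1657, 1682 and 2078 in control hippocampus against 1474, 1528 and 1429 in knockout hippocampus. The highest value of knockout mPFC and of control hippocampus were the libraries that stood apart. Sox5 fell by 28.1% (log2 change -0.48 ± 0.06; adjusted p = 1.04e-05). Sox6 was lower in all 6 knockout libraries (9877 to 11474) than in all 6 control libraries (11512 to 12532), by a narrow gap, and fell by 11.9% (log2 change -0.18 ± 0.04; adjusted p = 0.00053).

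Among the homeodomain genes, Nkx2-2 fell and Nkx6-2 was near the lower limit of the test. Nkx2-2 measured 5491, 4868 and 5223 in control mPFC and 2748, 2870.1 and 2426 in knockout mPFC. In hippocampus it measured 4477, 4332 and 4646 in control and 3950.2, 3916 and 3898 in knockout. The groups were apart in both regions, and the knockout mPFC libraries were the lowest of all. Nkx2-2 fell by 32.8% on the mean of both regions (log2 change -0.57 ± 0.04; adjusted p = 3.72e-08). Nkx6-2 measured 8.9 to 21.7 in the 12 libraries, its groups overlapped, and its log2 change was 0.10 ± 0.23 (95% interval -0.36 to 0.56; adjusted p = 0.729).

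Myrf and Zfp488 moved least among the called factors. Myrf measured 2615, 2683 and 2641 in control mPFC and 2932, 2760.5 and 2716.5 in knockout mPFC. It measured 3784, 3807.5 and 3488 in control hippocampus and 2988, 3085.5 and 3049 in knockout hippocampus. The libraries labelled control hippocampus were the highest and those labelled control mPFC the lowest, with the knockout libraries between them. On the mean of both regions it fell by 6.60% (log2 change -0.10 ± 0.03; adjusted p = 0.0188), and without the second control hippocampus library it no longer passed (-0.09; adjusted p = 0.0531). Zfp488 measured 3569 to 3681 in control mPFC, 3255 to 3554 in knockout mPFC, 3903 to 3972 in control hippocampus and 3641.5 to 3735 in knockout hippocampus. Each knockout group lay below the control group of the same label. Zfp488 fell by 6.72% (log2 change -0.10 ± 0.03; adjusted p = 0.011).

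Region by region under the deposited labels, 8 factors fell and 0 rose in mPFC, where 47.4% of genes were called, 23.2% lower and 24.1% higher. In hippocampus 8 fell and 0 rose, where 42.6% were called, 21.0% lower and 21.7% higher. In mPFC 8 factors were lower and Myrf higher in every knockout than in every control library, as were 27.0% and 27.3% of tested genes. In hippocampus 9 were lower without overlap, as were 27.2% of tested genes. The factors that did not pass were Nkx6-2 in both regions, Myrf in mPFC (log2 change 0.08 ± 0.05; adjusted p = 0.155) and Zfp488 in hippocampus (-0.09 ± 0.04; adjusted p = 0.118). With the control region labels exchanged, 8 fell in mPFC and 7 in hippocampus, where 38.8% and 48.1% of genes were called. Of 13985 tested genes 2633 fell in mPFC and 3303 in hippocampus under the exchange. Olig2 in mPFC no longer passed (-0.11; adjusted p = 0.138). The exchange gave larger falls for Olig2 (-0.33; adjusted p = 0.000241), Nkx2-2 (-0.40; adjusted p = 7.54e-05) and Sox5 (-0.36; adjusted p = 0.0029) in hippocampus and for Zfp488 (-0.23; adjusted p = 0.000631) in mPFC, while the uncalled hippocampal value of Zfp488 became 0.03. The direction of Myrf depended on those labels: it fell in hippocampus as labelled (-0.28 ± 0.05; adjusted p = 0.000227) and rose there with the labels exchanged (0.20; adjusted p = 0.00237), when it fell in mPFC (-0.40; adjusted p = 9.44e-06). Without both libraries that stood apart, Myrf passed in mPFC (0.10; adjusted p = 0.0122) and Zfp488 in hippocampus (-0.09; adjusted p = 0.0173), so that 9 factors were called in each region. More genes in general were also called in each region under that setting. Some smaller regional calls rested on single libraries. The hippocampal fall of Olig2 (-0.18 ± 0.06; adjusted p = 0.0192) was lost without knockout hippocampus 4 or 5 or control hippocampus 1 or 2 (adjusted p from 0.0528 to 0.0902). The mPFC fall of Zfp488 (-0.12 ± 0.04; adjusted p = 0.0366) was lost without knockout mPFC 1 or 2 or any 1 control mPFC library (adjusted p from 0.0556 to 0.127), and in a fit of the mPFC groups alone (adjusted p = 0.0996). The hippocampal fall of Sox5 (-0.28 ± 0.08; adjusted p = 0.015) was lost without knockout hippocampus 6 (adjusted p = 0.0558) or control hippocampus 3 (adjusted p = 0.0574), and that of Nkx2-2 (-0.19 ± 0.06; adjusted p = 0.0178) without knockout hippocampus 6 (adjusted p = 0.0523).

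The knockout effect differed between the regions for 3 factors, where 24.4% of tested genes had such a difference (11.8% with the higher value in hippocampus, 12.6% with the lower). Nkx2-2 fell by 48.4% in mPFC and fell by 12.5% in hippocampus, a log2 difference of 0.76 ± 0.08 (hippocampus minus mPFC; adjusted p = 2.33e-05). With the control labels exchanged it fell by 40.3% and fell by 24.4%, and the difference was 0.34 ± 0.08 (adjusted p = 0.0166), so the larger mPFC fall of Nkx2-2 held under both assignments. Sox5 fell by 37.1% in mPFC and fell by 17.8% in hippocampus (difference 0.39 ± 0.12; adjusted p = 0.0301). That difference was lost with the labels exchanged (0.23; adjusted p = 0.21), and without knockout hippocampus 4 or 5, knockout mPFC 1 or 2, control hippocampus 1 or 2, or control mPFC 2 or 3 (adjusted p from 0.0593 to 0.0836). Without both libraries that stood apart, Olig1 (-0.20; adjusted p = 0.00126) and Sox10 (-0.14; adjusted p = 0.0123) differed as well, and so did more genes in general. The difference of Myrf was -0.36 ± 0.06 as labelled (adjusted p = 0.00127) and 0.60 ± 0.06 with the labels exchanged (adjusted p = 5.92e-05). With exchanged labels 4 factors differed (Myrf, Nkx2-2, Sox8 and Zfp488), all with the higher value in hippocampus. Of 13985 tested genes 13.8% differed, 878 with the higher value in hippocampus and 1051 with the lower. Between the knockout groups alone, whose labels matched the regional genes, Nkx2-2 was 46.6% higher in hippocampus than in mPFC (log2 difference 0.55 ± 0.06; adjusted p = 3.64e-05). Sox8 was also higher there (0.18 ± 0.04; adjusted p = 0.00731), as were Sox5 (0.31 ± 0.08; adjusted p = 0.0251) and Zfp488 (0.14 ± 0.04; adjusted p = 0.036). Of tested genes 15.1% were called, 8.14% higher and 6.97% lower. The calls of Sox5 and Zfp488 were lost without any 1 of the 6 libraries except knockout mPFC 3 (adjusted p from 0.0545 to 0.136). Without knockout mPFC 3, Olig1 (-0.15; adjusted p = 0.0419) and Sox6 (0.11; adjusted p = 0.0267) passed as well. Between the control groups, Myrf was 39.4% higher in the libraries labelled hippocampus (adjusted p = 6.83e-06) and Nkx2-2 lower (log2 difference -0.21 ± 0.06; adjusted p = 0.02), where 23.7% of genes were called, 12.2% higher and 11.5% lower. That call of Nkx2-2 was lost without control hippocampus 1 or 2 or control mPFC 1 or 3 (adjusted p from 0.0543 to 0.0982). Without both libraries that stood apart, 7 factors were called between the control groups and 8 between the knockout groups. Far more genes in general were called under that setting too, so these counts are not particular to the factors.

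Other genes of the lineage were called in both directions in the knockout, as were genes in general, of which 27.5% fell and 26.9% rose. Of 37 other tested regulators of the lineage (39 listed), 14 fell, 8 rose and 15 did not pass, with a median log2 change of -0.03. Hes5, a Notch effector that holds back differentiation, stood at 664 to 914 in control and 159 to 265 in knockout libraries and fell (log2 change -1.90 ± 0.10). Klf9, a thyroid hormone responsive factor, stood at 308 to 431 in control and 669.8 to 729.5 in knockout and rose (0.99 ± 0.05). Pou3f1, a POU factor, stood at 1743 to 2151 in control and 2739 to 3378 in knockout and rose (0.76 ± 0.05). All 19 OPC markers changed, 14 of them lower and 5 higher (median -0.23), led by the Notch ligands Dll1 (-1.11 ± 0.04) and Dll3 (-1.58 ± 0.07). Pdgfra was among the higher (0.13 ± 0.03) and Cspg4 among the lower (-0.24 ± 0.04). The markers summed to 200757 to 203375.5 in control mPFC and 200405 to 212936 in knockout mPFC. In hippocampus they summed to 215562.5 to 217141 in control and 205152 to 206024 in knockout. Committed OPC genes split into 7 higher, 5 lower and 4 not passing of 16. Of the 4 with the smallest p, Ust rose (0.46 ± 0.04) and the others fell. These were Gpr17, a receptor of committed precursors (-0.68 ± 0.03), Neu4 (-0.48 ± 0.04) and Sema5a (-0.50 ± 0.04). Myelin genes split into 6 higher, 8 lower and 7 not passing of 21. Mbp, myelin basic protein, stood at 1977 to 3028 in control and 5113 to 5808 in knockout libraries and rose by 1.12 ± 0.03 on the log2 scale. Mag rose by 0.95 ± 0.05, Cldn11 by 0.74 ± 0.04 and Nfasc by 0.67 ± 0.03 on the log2 scale. Markers of other cells moved too. Of 14 astrocyte markers 11 rose and 2 fell, with summed levels of 24592 to 25903 in control, 27863 to 28303 in knockout hippocampus and 35211 to 36512 in knockout mPFC. Of 15 microglial markers 2 rose and 9 fell, with summed levels of 1840.5 to 2289 in control, 1495 to 1581 in knockout hippocampus and 1872 to 1985 in knockout mPFC, and of 11 mural and fibroblast markers 7 rose and 1 fell (708 to 1039 in control, 931 to 1265 in knockout). Of 13 neuronal markers 2 rose and 6 fell, and of 6 endothelial markers 3 rose and 1 fell. No marker of the astrocyte, microglial or mural lists was at 0 in all 12 libraries, and the part of these cells in the results was not tested.

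The genes whose values followed Sox8 most closely over the 12 acute libraries were Sez6l, Tox and Wasf1, with Pearson r of 0.993, 0.990 and 0.990 on the log2 scale. For Nkx2-2 they were Tsc22d1, Bhlhe40 and Sntg1, with r of 0.972, 0.962 and 0.957. They lead among 13984 other tested genes and are given as a description. The 12 points share 4 groups, so each r is carried mostly by differences between groups. Sez6l fell by 1.13, Tox by 0.87 and Wasf1 by 0.53 on the log2 scale in the mean knockout effect, and Tsc22d1 fell by 0.46, Bhlhe40 by 0.69 and Sntg1 by 0.75.

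In mouse mPFC cultures 1 factor, Nkx2-2, fell with GABA, and in hippocampus cultures 3 factors rose and 1 fell. In mPFC cultures 6.55% of 14894 tested genes were called, 3.36% lower and 3.18% higher. Nkx2-2 measured 5056, 4989.5 and 5157 in untreated and 3853, 4572.5 and 4503 in GABA-treated mPFC cultures. The groups were apart, as they were for Myrf, Sox5 and Zfp488 and for 13.3% of tested genes in this direction, and the first treated library, which stood apart from its group, was the lowest for Nkx2-2. Nkx2-2 fell by 15.2% (log2 change -0.24 ± 0.05; adjusted p = 0.00778), and the call was lost without the third untreated library (adjusted p = 0.0664). Myrf measured 6784, 7106 and 7036.5 untreated and 5879.5, 6548 and 6669 with GABA, a log2 change of -0.13 ± 0.04 that did not pass (adjusted p = 0.0744) and passed without the second treated library (-0.16; adjusted p = 0.0454). Without the first treated library, Olig1 (0.08; adjusted p = 0.0331) and Sox5 (-0.13; adjusted p = 0.0133) passed. The other 6 factors gave log2 changes from -0.34 to 0.04, the lowest being that of Nkx6-2 (95% interval -0.84 to 0.17). Of 16 committed OPC genes 7 fell and 0 rose, and of 20 myelin genes 7 fell and 1 rose, Nfasc among the lower (-0.40 ± 0.05). Of 11 astrocyte markers 4 rose and 2 fell, with summed levels of 24447.5 to 24875 untreated and 25868 to 26479.5 with GABA, and their part was not tested.

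In hippocampus cultures 24.7% of 14933 tested genes were called with GABA, 11.9% higher and 12.8% lower. Olig1 measured 16869.7, 15961 and 15150.4 untreated and 17846, 17859.5 and 17818 with GABA, all treated libraries being above all untreated ones, as for 18.6% of tested genes. It rose by 11.7% (log2 change 0.16 ± 0.03; adjusted p = 0.000684). Myrf measured 5541, 5220.2 and 4888 untreated and 5886, 5936 and 5705 with GABA, again with no overlap, and rose by 12.1% (0.17 ± 0.04; adjusted p = 0.00188). Sox10 measured 14966, 13875 and 12744 untreated and 15467, 15317 and 15076 with GABA. It rose by 10.5% (0.14 ± 0.04; adjusted p = 0.0069), a call lost without the first treated library (adjusted p = 0.0545). Sox5 was the factor that fell, from 3286, 3243 and 3313.5 to 2695, 2827 and 2817 (it fell by 15.3%; -0.24 ± 0.03; adjusted p = 1.53e-05). Sox6, Olig2 and Zfp488 were lower in all treated than in all untreated libraries and did not pass (log2 changes of -0.06, -0.05 and -0.07), where 20.7% of tested genes were lower without overlap. Of 14 microglial markers 6 fell and 0 rose, with summed levels of 2191.5 to 2288 untreated and 1744 to 1763 with GABA, and of 8 mural and fibroblast markers 4 rose and 0 fell (649 to 765.5 untreated, 969 to 1050.0 with GABA). Their part was not tested. Of 21 myelin genes 3 rose and 2 fell.

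The GABA effect itself differed between the mouse regions for 2 factors, where 4.78% of 15487 tested genes differed, 2.60% with the higher and 2.19% with the lower value in hippocampus. Myrf differed by 0.30 ± 0.06 on the log2 scale (hippocampus minus mPFC; adjusted p = 0.00913), with a rise in hippocampus and a change of -0.13 that did not pass in mPFC. Sox10 differed by 0.23 ± 0.07, at the edge of the threshold (adjusted p = 0.04997), and this call was lost with pseudocounts of 0.1 or 10, with robust variance estimates, and without any 1 of 9 of the 12 libraries (adjusted p from 0.0507 to 0.171). The 3 libraries whose removal kept it were untreated hippocampus 1 and GABA-treated mPFC 2 and 3. For Nkx2-2, called in mPFC and not in hippocampus, the difference was 0.19 ± 0.08 and did not pass (adjusted p = 0.159). It passed without the first untreated hippocampus library (0.26; adjusted p = 0.0291). For Olig1 the difference was 0.14 ± 0.06 (adjusted p = 0.191) and passed without the second GABA-treated mPFC library (0.20; adjusted p = 0.0243).

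**Figure D3:**
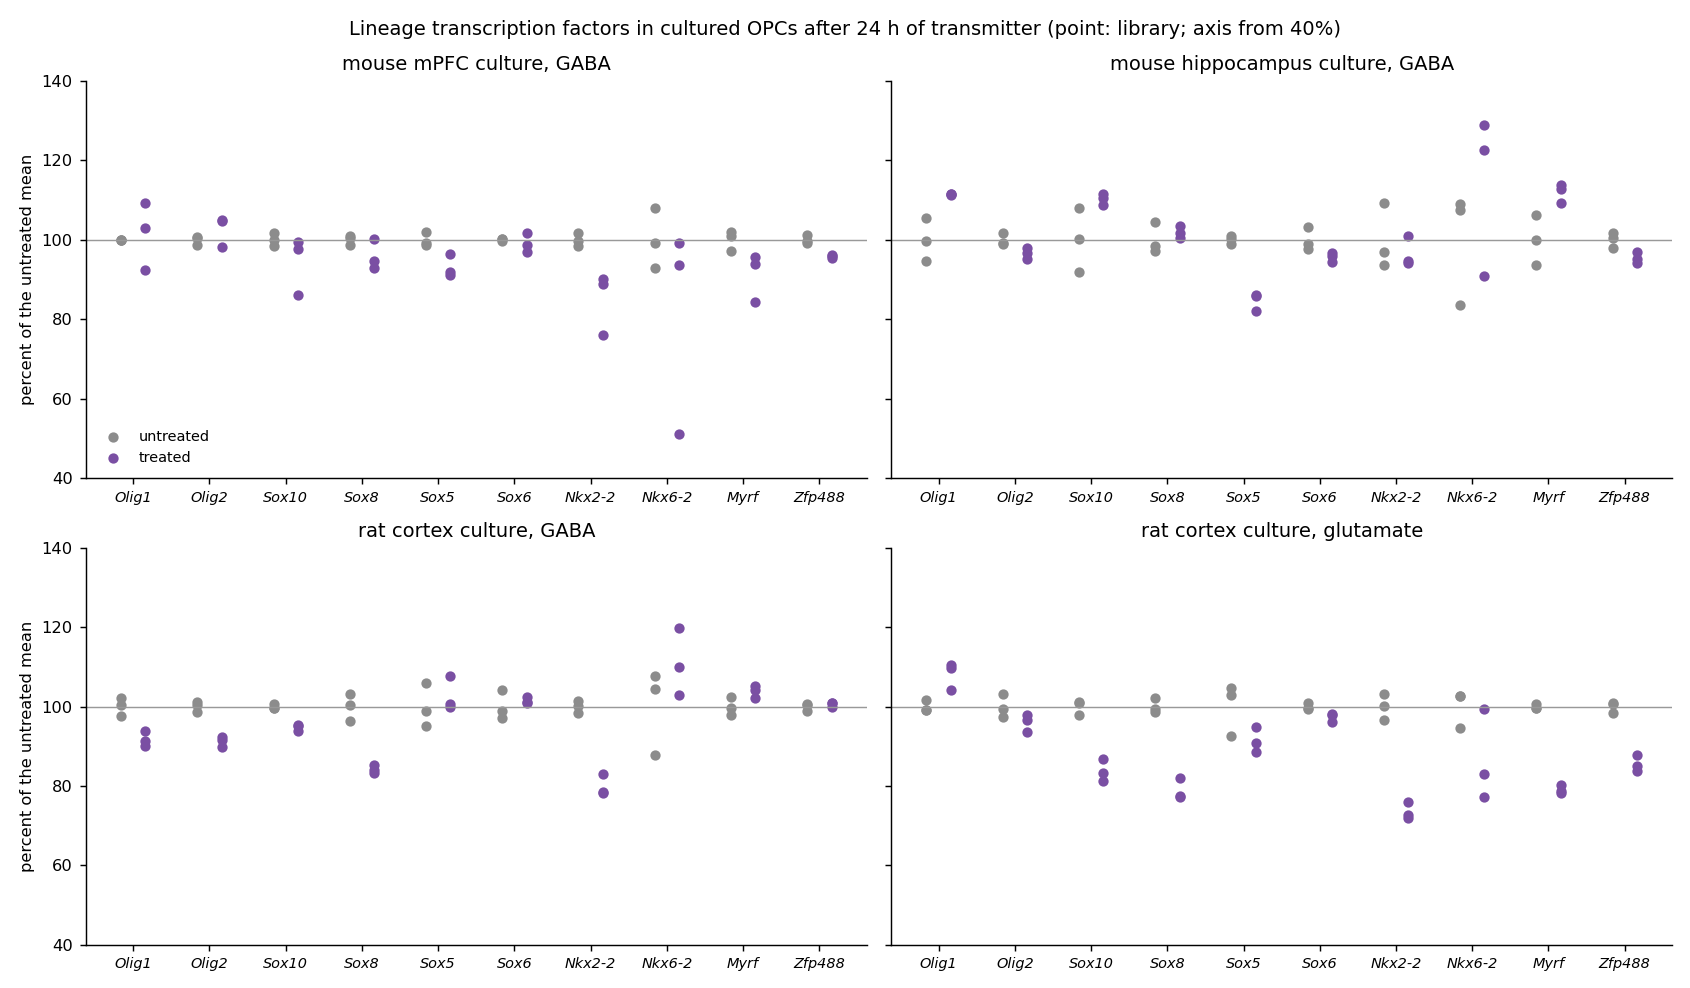
Each factor in cultured OPCs as percent of the untreated mean of the same table (axis from 40%); points are libraries, grey untreated and purple treated at 200 uM for 24 h. Nkx2-2 lies below the untreated libraries in mouse mPFC with GABA and in rat with either transmitter, Myrf is lowered with glutamate, and Olig1 and Myrf are raised by GABA in mouse hippocampus.

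In rat cortical cultures 5 factors fell with GABA and 0 rose, where 23.7% of 12481 tested genes were called, 11.8% lower and 11.9% higher. Nkx2-2 measured 5707, 5609.5 and 5786 untreated and 4739, 4479.8 and 4459 with GABA. The groups were apart, as for the other 4 called factors and for 19.0% of tested genes in this direction (18.2% in the other), and Nkx2-2 fell (log2 change -0.32 ± 0.03; adjusted p = 1.85e-10). Sox8 fell by 15.7% (-0.25 ± 0.03; adjusted p = 6.18e-08), from 5542, 5695 and 5318 to 4643, 4602 and 4709. Olig2 measured 20820.1, 20329.8 and 20665 untreated and 19018, 18512 and 18849.6 with GABA, and Olig1 measured 29594 to 30976 and 27350.5 to 28444. Both groups of the OLIG genes were apart, and Olig2 fell by 8.79% (adjusted p = 0.000198) and Olig1 fell by 8.23% (adjusted p = 0.000748). Sox10 fell by 5.23% (-0.08 ± 0.03; adjusted p = 0.0231). Its change was -0.01 under quantile normalization (adjusted p = 0.662), and was lost without the first untreated library or any 1 treated library (adjusted p from 0.0632 to 0.0798). Myrf, at 13357 to 13969.9 untreated and 13921 to 14356 with GABA, gave 0.05 ± 0.03 (adjusted p = 0.137) and passed without the second untreated library (0.07; adjusted p = 0.0353). Sox5, Sox6, Nkx6-2 and Zfp488 did not pass either, with log2 changes from 0.01 to 0.15. Of these, Sox5 was low, at 86.0 to 97.4 in these libraries. Of 22 myelin genes 10 rose and 1 fell, Mbp among the higher (0.36 ± 0.03). Of 14 microglial markers 13 rose and 0 fell. Their summed level was 1547 to 1632 untreated and 2487.5 to 2562 with GABA, C1qa being at 58.9 to 69.0 untreated and 163.9 to 187.0 with GABA, and the part of microglia in these results was not tested.

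In rat cultures with glutamate 6 factors fell and Olig1 rose, where 28.3% of 12465 tested genes were called, 14.2% lower and 14.1% higher. Nkx2-2 measured 2721, 2901.5 and 2819 untreated and 2023, 2141 and 2048 with glutamate, without overlap, and fell by 26.4% (log2 change -0.44 ± 0.03; adjusted p = 4.33e-21). Sox8 measured 6241, 6458 and 6283.5 untreated and 4883, 4904 and 5187 with glutamate, and fell by 21.1% (-0.34 ± 0.02; adjusted p = 2.82e-20). Myrf measured 11278, 11292 and 11391 untreated and 8851, 9077 and 8924.5 with glutamate, and fell by 20.9% (-0.34 ± 0.02; adjusted p = 1.01e-23). Every glutamate library lay below every untreated one for these 3 factors and for Sox10, Zfp488 and Sox6, as for 19.6% of tested genes. Sox10 fell from 14418.5, 14902 and 14842 to 11949, 12256 and 12793 (it fell by 16.2%; adjusted p = 2.64e-17), and Zfp488 was at 2224 to 2279.5 untreated and 1894.5 to 1986 with glutamate (it fell by 14.4%; adjusted p = 1.17e-08). Olig1 rose from 22545, 22592 and 23175 to 23715, 24977 and 25135.5 (by 8.05%; 0.11 ± 0.02; adjusted p = 2.72e-06), again without overlap, as for 19.2% of tested genes. Olig2 overlapped between the groups (15332 to 16232 untreated, 14734 to 15416.5 treated), and it fell by 3.87% (-0.06 ± 0.02; adjusted p = 0.0297), a call lost without any 1 of untreated 2 or 3 or treated 1 or 3, without the filter and under quantile normalization (adjusted p from 0.0557 to 0.304). Sox5 (-0.13 ± 0.08), Sox6 (-0.04 ± 0.03) and Nkx6-2 (-0.21 ± 0.10) did not pass. Nkx6-2, at 174.8 to 190.0 untreated and 143.0 to 183.8 treated, passed without the second treated library (-0.32; adjusted p = 0.018) and under quantile normalization (-0.27; adjusted p = 0.0294).

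Genes of committed precursors and myelin fell beside the factors under glutamate, where 14.2% of all tested genes fell. All 15 tested committed OPC genes fell (median log2 change -0.33), among them Gpr17 (-0.52 ± 0.02) and Tns3 (-0.37 ± 0.02). Of 24 myelin genes 10 fell and 0 rose, among them Mag (-0.51 ± 0.03). Of 19 OPC markers 11 fell and 3 rose, and of 36 other lineage regulators 11 rose and 6 fell. Of 12 astrocyte markers 8 rose and 2 fell, with summed levels of 42777 to 42964 untreated and 50038 to 50249.6 with glutamate, and their part was not tested.

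**Figure D4:**
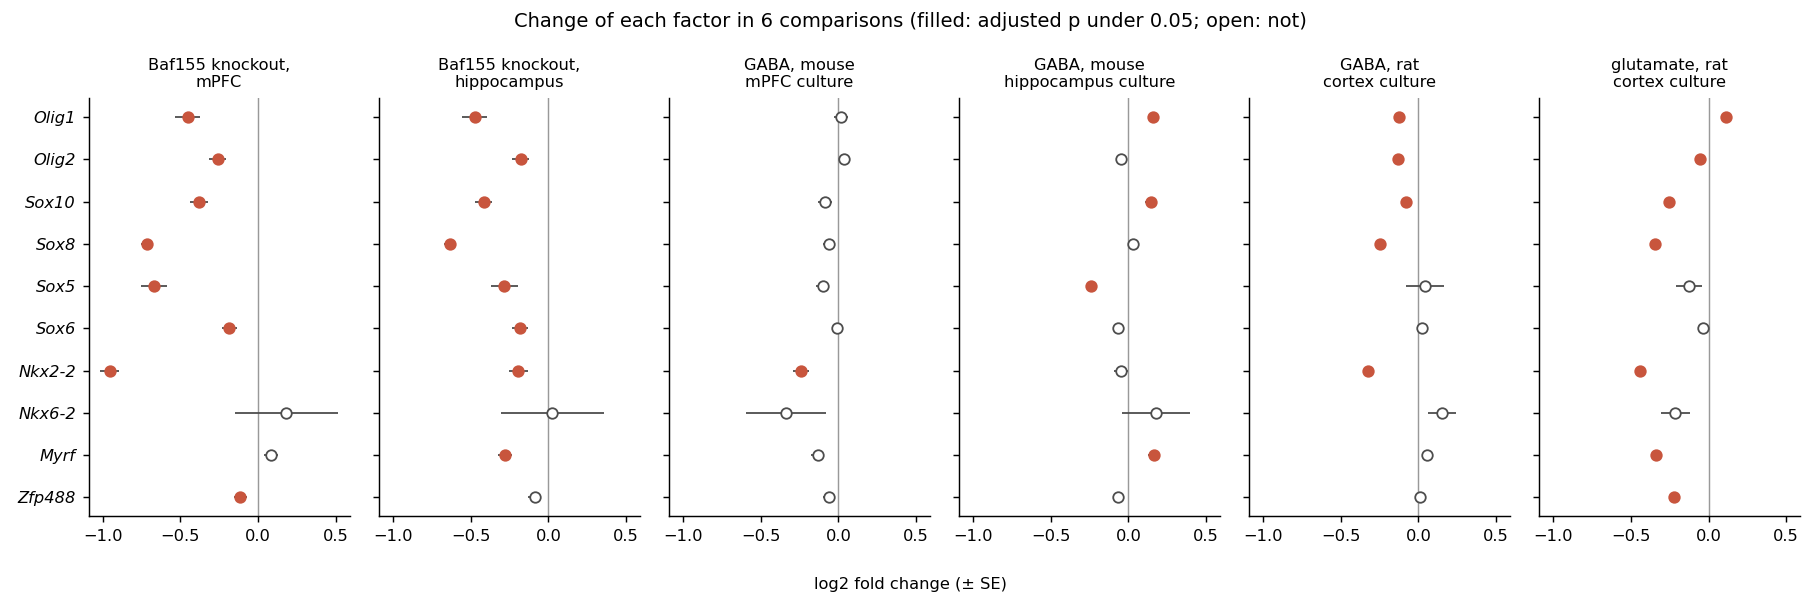
Log2 fold change ± SE of each factor in 6 comparisons, filled where the adjusted p is under 0.05; the knockout panels use the region labels as deposited. Nkx2-2 is filled and left of 0 in 5 of the 6 panels, the exception being GABA in mouse hippocampus culture, and Myrf lies on either side of 0.

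Glutamate and GABA effects in rat, each taken against its own untreated cultures, differed for 6 factors, where 20.5% of 12675 tested genes differed, 10.5% with the lower value for glutamate. Myrf differed most by its test (-0.39 ± 0.03, glutamate minus GABA; adjusted p = 3.63e-14). Olig1 differed by 0.24 ± 0.03 (adjusted p = 1.82e-07), falling with GABA and rising with glutamate. Zfp488 differed by -0.23 ± 0.04 (adjusted p = 3.82e-05) and Sox10 by -0.18 ± 0.03 (adjusted p = 3.81e-05), both lower with glutamate. Nkx2-2 fell more with glutamate (difference -0.12 ± 0.04; adjusted p = 0.0377), a call lost without any 1 of untreated 1 or 2 or treated 1 of the GABA set or untreated 2 or 3 or treated 1 or 3 of the glutamate set (adjusted p from 0.0642 to 0.148). Nkx6-2 differed by -0.36 ± 0.13 (adjusted p = 0.0426), a call lost without any 1 of untreated 2 or treated 1 or 3 of the GABA set or untreated 1 or 3 or treated 1 or 3 of the glutamate set (adjusted p from 0.0688 to 0.152). For Sox8 the difference of -0.10 ± 0.04 did not pass (95% interval -0.17 to -0.02; adjusted p = 0.0727). It passed without untreated 2 of the GABA set or treated 3 of the glutamate set (adjusted p = 0.0176 and 0.0273). For Olig2 the difference of 0.08 ± 0.03 did not pass (adjusted p = 0.102) and passed without untreated 2 of the GABA set or untreated 3 or treated 1 of the glutamate set (adjusted p from 0.0402 to 0.048). The transmitters were applied in separate sets with tables scaled separately, so set and transmitter cannot be told apart beyond the use of each set's own untreated cultures.

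**Figure D5:**
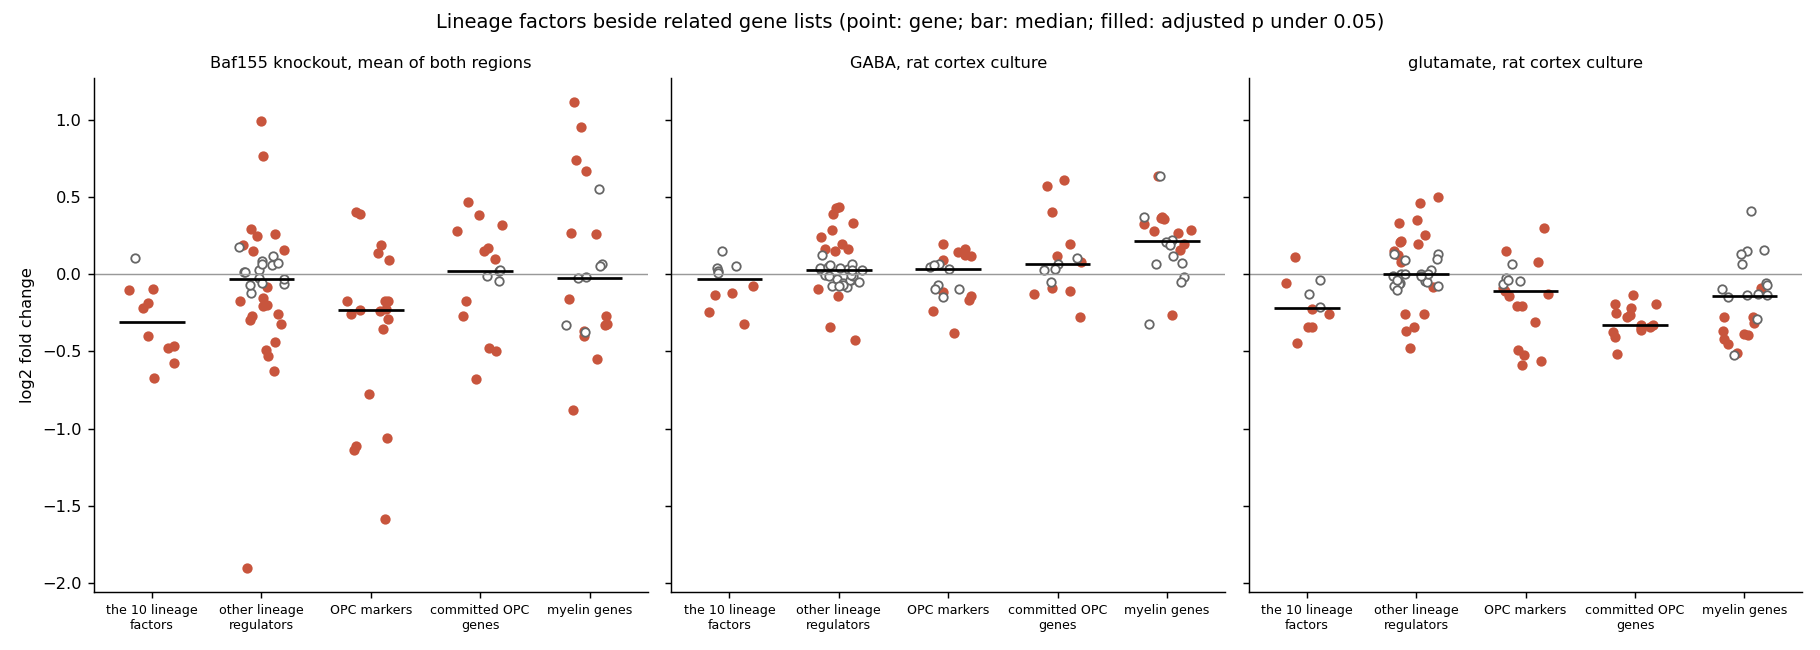
Log2 fold change of each tested gene of 5 lists (points; filled where the adjusted p is under 0.05) with the list median (bar), for the mean knockout effect and for GABA and glutamate in rat cultures. The medians of the 10 lineage factors are -0.31, -0.03 and -0.22, and those of the myelin genes are -0.03, 0.22 and -0.14.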

How the data were processed

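Polyadenylated RNA was sequenced as single-end reads in 36 libraries. The values the authors deposited are a signal on a linear scale, normalized read counts, and the submitters' processing notes name HISAT, Bowtie2 and DESeq2 and the build GRCm38.p6, with no versions or roles given in the sources used here, also for the rat samples. Every value was a whole multiple of 1 step per library (100% of values) within a tolerance of 1e-05 of the count. This tolerance is relative, so it is loose for high counts. The values were taken as reads divided by 1 size factor, and reads were recovered from that step. By this measure 14826255 to 22128687 reads stood behind each library. Of 22064 entries in the acute table, 3600 held no values and were left out, and rat entries with no symbol held 1.52 to 1.66% of reads.

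Samples were grouped by their labels. Genes with a value of at least 10 in at least 3 libraries were tested with limma 3.58.1 (trend, R 4.3.3) on log2(value + 1), which understates the change of low genes, with Benjamini-Hochberg adjustment over all tested genes and a threshold of 0.05. The 4 acute groups shared 1 fit, each culture comparison had its own, and differences between culture sets came from 1 fit over both tables. Mean knockout effects weight both regions equally. An exact permutation test of 3 against 3 cannot go below p = 0.1 and was not used. Intervals are 1.96 SE either side. Count tests (edgeR 4.0.16, DESeq2 1.42.0) were alternatives only where recovered reads were accepted for all libraries of a comparison. Recovered reads were accepted for 19 of 36 libraries. The fits were also run on simulated data with the same small spread for every gene and no library that stood apart. That run therefore does not cover the libraries that did. The factors and gene lists were chosen with earlier results of these data known, and gene lists are described by counts and medians. The genes named are all 10 factors, up to 4 genes of each list described, those with the smallest p in that comparison, Smarcc1, Pdgfra, Cspg4, Cldn5 and Nr2f2 as checks of the labels (Nr2f2 chosen after its values were seen), and the 3 genes most correlated with Sox8 and with Nkx2-2. Other settings tried were pseudocounts, filters, rescaling, quantile normalization, robust variance, a replicate block, the groups of a contrast alone, each library left out, the exchange of control region labels, and, chosen after the data were seen, the removal of both libraries that stood apart. Per the labels the region is mPFC, while the extraction protocol names cortex, and knockout hippocampus libraries are numbered 4 to 6 in their titles. Some genes that this rule names are not reported here.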

Additional observations from a re-analysis of the deposited data

Results flagged for a closer look

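These results stand out because the effect of the same contrast differed between regions or transmitters by a test of the difference itself (limma, adjusted over all tested genes).

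The knockout effect, hippocampus minus mPFC, differed on the log2 scale by 0.76 for Nkx2-2, by 0.39 for Sox5 and by -0.36 for Myrf. With the control region labels exchanged these became 0.34, 0.23 (adjusted p = 0.21) and 0.60.

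The GABA effect, hippocampus minus mPFC culture, differed by 0.30 for Myrf and by 0.23 for Sox10. The Sox10 call is at the edge of the threshold (adjusted p = 0.04997) and was lost with other pseudocounts, with robust variance and without any 1 of 9 of the 12 libraries.

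The glutamate effect minus the GABA effect in rat cultures differed by -0.39 for Myrf, -0.12 for Nkx2-2, -0.36 for Nkx6-2, 0.24 for Olig1, -0.18 for Sox10 and -0.23 for Zfp488. No test for a single deviating value of a factor was made, since groups hold 3 libraries.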

How the results depend on the processing

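Across the alternatives, 1825 values of single factors kept their direction and their side of the threshold, 35 newly passed and 82 no longer passed. A further 35 changed sign without passing under either setting, 4 of them with the control region labels exchanged. Of values that passed under at least 1 setting, 3 changed direction, those of Myrf with the labels exchanged: -0.40 in mPFC, 0.20 in hippocampus and 0.60 for their difference. The exchange gave 1929 genes with a regional difference of the knockout effect. In the mean knockout effect, Sox8 stayed between -0.69 and -0.66, Nkx2-2 between -0.60 and -0.53, and Olig1 between -0.50 and -0.41 over all 22 settings. For the difference of the GABA effect, pseudocounts of 0.1 and 10 and robust variance each left 1 factor, and for GABA in mPFC cultures testing with no filter left 641 genes. A check of libraries with the same replicate number in different groups gave correlations of -0.05 to 0.12, with 1 exception. It was 0.25 between knockout mPFC 3 and control hippocampus 3, the 2 libraries that stood apart. Otherwise replicate numbers did not pair the samples. With the replicate as a block, GABA in mPFC cultures gave 2 factors and its regional difference 1 factor and 490 genes. The cause of these moves was not tested.

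With 1 library left out, genes and factors called ranged from 6946 to 7857 and 8 to 9 for the mean knockout effect, 5599 to 6948 and 7 to 8 in mPFC, 4624 to 6512 and 6 to 7 in hippocampus, and 2421 to 5283 and 2 to 3 for their difference. The control groups differed in 2111 to 3757 genes and 1 to 2 factors and the knockout groups in 1045 to 4922 and 2 to 6. GABA gave 418 to 1820 genes and 0 to 3 factors in mPFC, 2357 to 4300 and 3 to 4 in hippocampus, 269 to 1278 and 1 to 3 for their difference, and 2091 to 3113 and 4 to 6 in rat. Glutamate gave 2859 to 3269 and 6 to 8, and its difference from GABA 2179 to 2714 and 4 to 6. The highest counts came without knockout mPFC 3 for the knockout groups (4922) and the difference (5283), and without the first GABA-treated library for mPFC cultures (1820). Leaving out both knockout mPFC 3 and control hippocampus 3 gave 8666 genes and 9 factors for the mean, 7960 and 9 in mPFC, 7972 and 9 in hippocampus, 6990 and 5 for the difference, 5896 and 7 between the control groups, and 6250 and 8 between the knockout groups. On recovered reads edgeR called 6365 and DESeq2 5468 genes in the hippocampus knockout against 5964 with limma, with 8 factors in each. Between the knockout groups they called 1553 and 1513 against 2114, and Zfp488 no longer passed (adjusted p = 0.113 and 0.112). Counts of reads limit Nkx6-2 in mouse, at 8.9 to 32.9 units. Sox5 in rat was also low, at 86.0 to 97.4 units in the GABA set and 191.3 to 226.3 in the glutamate set.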
